A study of Mus musculus with 6 samples.

Results

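The 9 genes described here control whether a cell dies through death receptors or through its mitochondria: Casp8, Cflar, Fadd, Ripk1, Casp9, Mcl1, Bcl2, Bcl2l1 and Bcl2l11. They were chosen by name, as the entries of the gene and junction tables that carry these symbols. This gave 9 of 13932 genes and 85 of 151811 splice junctions. The libraries came from common myeloid progenitors, the marrow cells that give rise to granulocytes, monocytes, red cells and platelets. The comparison asked what a short expression of mutant U2AF1 does to the transcriptome of these cells. U2AF1 contacts the AG that ends an intron as part of the U2AF splicing factor, and S34F is a substitution that recurs in myelodysplastic syndromes.

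Both groups were mice transplanted with marrow that carried a U2AF1 transgene and the transactivator rtTA, which switches the transgene on in the presence of doxycycline. One group carried U2AF1(S34F) and the other U2AF1(WT), so the controls also expressed a transgene and also received the drug. Doxycycline was fed in chow for 5 days, after an engraftment of more than 6 weeks. Donor-derived cells were sorted as Lineage-, c-Kit+, Sca-1-, CD34+ and Fcgamma-. There were 3 libraries per genotype, each from the marrow of 4 to 5 pooled mice, so a library is an average over animals. The group was read from the sample titles, because the genotype entry of the samples reads S34F for all 6. The sources used here do not give the ages and strains of the mice, or the promoter of the transgene beyond its dependence on rtTA.

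Apoptosis runs along a pair of routes. Death receptors recruit the adaptor FADD, which brings in the initiator protease caspase-8; FLIP, encoded by Cflar, binds the same platform and limits caspase-8 activity, and RIPK1 steers the signal between survival, apoptosis and necroptosis. In the mitochondrial route the survival proteins MCL1, BCL2 and BCL-XL (from Bcl2l1) hold the pore-forming proteins BAX and BAK in check, BH3-only proteins such as BIM (from Bcl2l11) bind and neutralise them, and release of cytochrome c activates caspase-9. MCL1 is known as a survival factor that blood progenitors depend on. Several of these transcripts are spliced into forms with different activity, which is why junction reads are given beside gene levels.

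The S34F libraries held 46827909 to 51862032 gene counts and the WT libraries 54727541 to 94562984, so WT was the deeper group throughout. Of the marker genes of the gate, Kit was at 92.4 to 209 and Cd34 at 695 to 904 CPM (counts scaled to a common library size), against 1.08 to 1.84 for Ly6a, which encodes Sca-1. Fcgr3, which encodes an Fcgamma receptor, was at 33.4 to 111 CPM although the gate was Fcgamma-, and in WT replicate 2 it was above Kit (111 against 92.4 CPM). Replicate 1 of both genotypes came from male cells, since Ddx3y had 5714 and 5580 counts there and 0 in the other 4 libraries. Mitochondrially encoded genes took 2.44 to 2.77% of the counts in S34F and 1.27 to 2.04% in WT. Of 15 dendritic cell and macrophage markers, 14 were in the table and summed to 434 to 624 CPM in S34F and 727 to 896 CPM in WT. Flt3 (239 to 362 against 327 to 372 CPM) and Csf1r (121 to 170 against 127 to 145) made up most of that sum and overlapped. The MHC class II genes H2-Aa (7.49 to 18.5 against 63 to 113 CPM) and H2-Ab1 (21.3 to 27.6 against 59.1 to 101) did not overlap, nor did the low dendritic cell markers Clec9a (1.1 to 2.77 against 5.64 to 8.6), Batf3 (0.0766 to 0.594 against 1.36 to 1.7) and Xcr1 (0.108 to 0.495 against 0.745 to 1.27). The 5 megakaryocyte markers summed to 87.5 to 116 against 127 to 172 CPM. Neither sum overlapped between the genotypes, and their part in the results below was not tested. The sums over neutrophil (6783 to 10614 against 6528 to 9755 CPM), erythroid (271 to 321 against 249 to 289) and lymphoid markers (171 to 238 against 155 to 219) overlapped. In such bulk samples fewer cells of a type and less RNA per cell cannot be told apart.

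On the CPM scale the libraries of the genotypes overlapped in level for each of the 9 genes, and no difference was called. edgeR's quasi-likelihood test, with Benjamini-Hochberg adjustment over 13905 genes, called 0 of the 9, DESeq2 also called 0, and 0 had an unadjusted p under 0.05. Across all genes edgeR called 0% at an adjusted p under 0.05, 9.1% had an unadjusted p under 0.05, and DESeq2 called 0.689%. In 0 of the 9 did the ranges of the genotypes separate, against 15.6% of all genes. The log2 fold change was above 0 for 6 and below 0 for 3, with a median of 0.02, and the median of all genes was -0.01. In the authors' deposited table the log2 fold changes of the 9 lay between -0.18 for Fadd and 0.24 for Bcl2l1 and Bcl2l11, and the adjusted p-values it lists for 8 of them were 0.611 or higher.

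**Figure D1:**
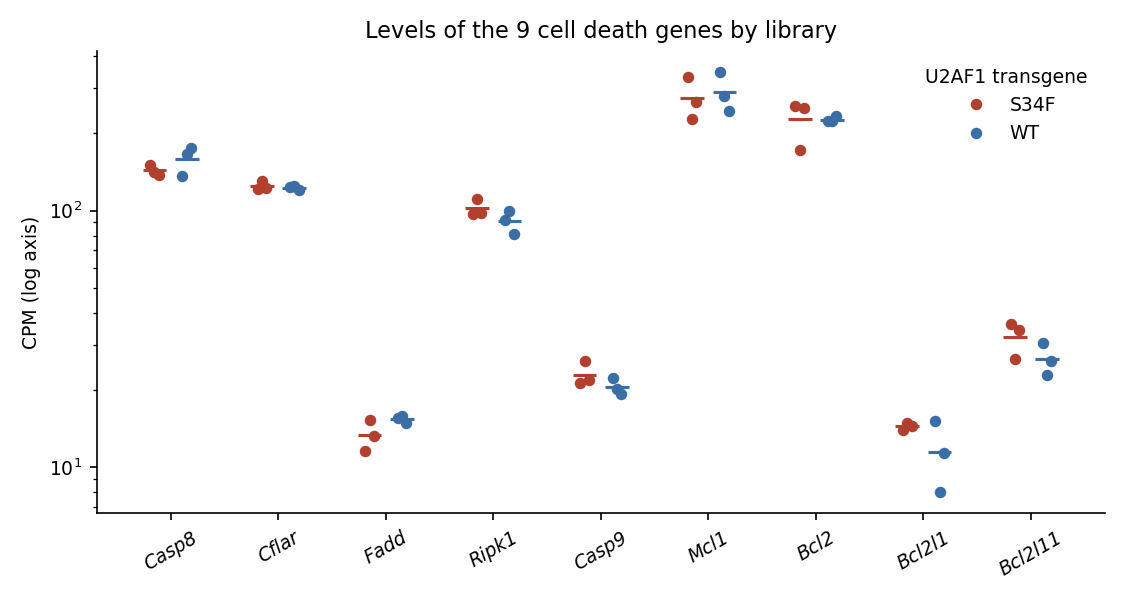
Level of each of the 9 genes in every library, in CPM on a log axis; points are libraries (replicates 1 to 3 from left to right), bars are means, red is U2AF1(S34F) and blue is U2AF1(WT). The genotypes overlap for every gene, with the widest scatter among the WT libraries of Bcl2l1 (7.97 to 15.1 CPM) and the S34F libraries of Bcl2 (173 to 257 CPM).

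Levels can be compared between genes only per transcript length, so the authors' FPKM, which divides by transcript length and library size, was used for the order. By the mean FPKM over the 6 libraries Mcl1 was highest (45.4), then came Casp8 (23.7), Cflar (22.7), Ripk1 (14.2), Bcl2 (13.8), Bcl2l11 (6.83), Bcl2l1 (4.08), Casp9 (3.75) and Fadd (2.08). Casp8 exceeded Cflar in 4 of 6 libraries, Ripk1 exceeded Bcl2 in 4 and Bcl2l1 exceeded Casp9 in 4, so these neighbours did not differ beyond their spread. The FPKM ranges separated without overlap between Cflar and Ripk1 and between Casp9 and Fadd. On the FPKM scale Fadd was at 1.71 ± 0.146 in S34F and 2.46 ± 0.236 in WT (mean ± SD, n = 3). Cflar was at 19.6 ± 1.03 and 25.8 ± 1.5, Mcl1 at 38.4 ± 8.54 and 52.4 ± 5.14, and Casp9 at 3.57 ± 0.0326 and 3.92 ± 0.374. None of these genes overlapped between the genotypes on that scale, while on the CPM scale used for the tests all of them did. The mean FPKM was lower in S34F for every gene except Bcl2l1 (4.22 against 3.94). The authors' FPKM is normalized separately from the counts and entered no test. How many of all genes separate or are lower in S34F on the FPKM scale was not computed. The FPKM differences are therefore not read as a result about these genes.

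Fadd, the adaptor between death receptors and caspase-8 (chr7:151763223-151768368, minus strand, build mm9), had 604, 704 and 665 counts in S34F replicates 1 to 3 and 863, 1126 and 1395 in WT. Scaled, they came to 11.6, 15.2 and 13.2 CPM against 15.6, 15.8 and 14.8 CPM. S34F replicates 1 and 3 were below every WT library and S34F replicate 2 was between WT replicates 1 and 3. edgeR gave a log2 fold change of -0.22 with a standard error of 0.14 (95% interval -0.54 to 0.11; edgeR adjusted p = 0.626). Its single junction, between the coding exons, had 52, 87 and 49 reads in S34F and 89, 67 and 160 in WT, and Fadd has no alternative junction in the table.

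Casp8 (chr1:58852218-58904347, plus strand), the initiator caspase of this route, had 7872, 6590 and 6992 counts in S34F and 7573, 11782 and 16508 in WT. Scaled to library size these were 151, 142 and 138 CPM against 137, 166 and 176 CPM. WT replicate 1 was the lowest of the 6 libraries and the other WT replicates were the highest, so the ranges overlapped. The means were 144 ± 6.25 and 160 ± 20 CPM, with a log2 fold change of -0.15 and a standard error of 0.11 (95% interval -0.41 to 0.11; edgeR adjusted p = 0.653). The interval spans from 0.75 to 1.08 times the WT level. Without WT replicate 1 the log2 fold change was -0.25, and without WT replicate 3 it was -0.08. Between libraries of the same number the log2 difference was 0.13, -0.22 and -0.34, and the male replicate 1 was the one that was higher in S34F.

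Most of the 24 Casp8 junctions, 15, join sites in a way that no transcript of the GENCODE M1 annotation does, but together these carried only 2.27, 1.97 and 3.49% of the Casp8 junction reads in S34F and 3.13, 3.28 and 2.26% in WT. The share was 2.58 ± 0.805 against 2.89 ± 0.548% (exact permutation p = 0.8, n = 3, two-sided; 0.1 is the smallest value 3 libraries against 3 can give). The main chain of junctions from the first coding exon on had 498 to 2578 reads per library at each intron.

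The member event with the lowest p of all was an unannotated exon of Casp8, chr1:58882602-58882766, which lies in the intron between the coding exons that end at 58881091 and start at 58884051. The exon is 165 nt long, a multiple of 3. Read on from the coding frame of Casp8-201, counting the codon that spans the upstream exon border as 1, it holds a stop at codon 5. It is shown with that stop in capitals, 5′ to 3′ from the mm9 genome, because it is the sequence that inclusion would add to the caspase-8 transcript.

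Casp8 165-nt exon: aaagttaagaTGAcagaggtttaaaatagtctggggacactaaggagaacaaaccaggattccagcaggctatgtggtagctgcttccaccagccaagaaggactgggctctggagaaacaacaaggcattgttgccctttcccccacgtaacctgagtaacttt

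Its acceptor has an A at intron position -3, the base before the AG, where the acceptor it competes with has a C. The base at -3 is the one whose preference is known to shift with U2AF1 S34F, so the acceptors are printed with positions -3 to -1 in capitals, after 20 bases of intron and before 3 bases of exon.

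Casp8 165-nt exon acceptor: cttcctcttctttcttgttaAAGaaa

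Casp8 annotated acceptor at 58884051: agtgcctctgtttcctgccaCAGggt

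The upstream inclusion junction had 13, 18 and 17 reads in S34F and 2, 18 and 20 in WT, the downstream one 12, 6 and 14 against 11, 8 and 5, and the skipping junction 590, 498 and 556 against 578, 942 and 1381. With the average of the inclusion junctions set against skipping, inclusion was 2.07, 2.35 and 2.71% in S34F and 1.11, 1.36 and 0.897% in WT. Every S34F library was above every WT library, at a low level in both. The means were 2.38 ± 0.320 and 1.12 ± 0.232%, and the log2 odds of inclusion differed by 1.12 with a standard error of 0.29 (95% interval 0.44 to 1.79). The edgeR p was 0.00546, and the adjusted p over 7260 cassette exons was 0.273; DESeq2 gave 0.134. The call was therefore not made by either tool. The upstream and downstream junctions did not behave alike in every library, since WT replicate 1 had 2 reads into the exon and 11 out of it. As a share of all reads that leave the donor at 58881091, use of the exon's acceptor was 2.1, 3.47 and 2.88% in S34F and 0.339, 1.84 and 1.40% in WT (edgeR adjusted p = 0.690). In the authors' deposited table that junction had a log2 fold change of 1.21, a p of 0.0484 and no adjusted call. There, 3 of the 84 member junctions with a p were under 0.05 and 0 after adjustment (lowest 0.592), where over all its junctions 7.36% and 0.34% were.

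Across the 9 genes, 8 of 12 cassette exons passed the read filter. edgeR called 0 of the 8 and DESeq2 0, and the Casp8 exon was the only one with an unadjusted p under 0.05 and the only one whose genotypes did not overlap. Of all cassette exons tested, edgeR called 0.0275%, DESeq2 called 2.09%, 10.8% had an unadjusted edgeR p under 0.05 and 19.7% did not overlap.

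**Figure D2:**
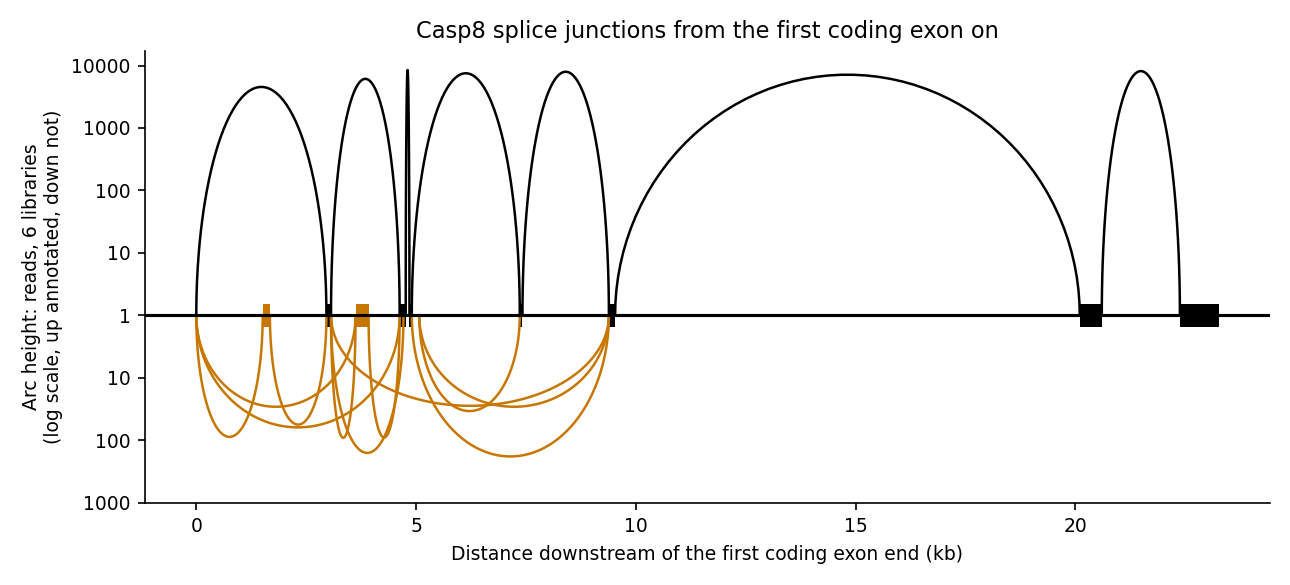
Casp8 junctions from the end of the first coding exon to the last exon, by distance in kilobases; each arc joins the exons of a junction, its height is the number of reads over the 6 libraries on a log scale, upward arcs are annotated and downward orange arcs are not, black boxes are annotated exons and orange boxes unannotated ones. The annotated chain stands at 4545 to 8479 reads per junction and no unannotated arc exceeds 181.

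A second unannotated Casp8 exon, chr1:58884714-58885011 (298 nt, with a stop at its codon 17 in the same frame), lies in the next intron. Its inclusion was 1.33, 0.968 and 1.02% in S34F and 1.78, 2.1 and 1.29% in WT. The means were 1.11 ± 0.197 and 1.72 ± 0.410%, S34F replicate 1 was just above WT replicate 3, and the edgeR p was 0.0720 (adjusted 0.508). In the noncoding 5′ part of the gene an unannotated exon of 116 nt (chr1:58860843-58860958) was included at 7.43, 6.02 and 8.24% in S34F and 13.2, 7.09 and 10.3% in WT (edgeR adjusted p = 0.772). The acceptors of both exons have a C at -3.

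Casp8 is transcribed from alternative first exons that join the same coding start. The junction of Casp8-201 took 82.6 ± 1.15% of the reads at the acceptor 58880759 in S34F and 81.7 ± 3.35% in WT. The junction of the other annotated first exon, from the donor 58859537, took 16.2, 15.4 and 16.0% in S34F and 13.4, 16.5 and 19.1% in WT. WT enclosed S34F on both sides, and the edgeR adjusted p was 0.994. Skipping of the coding exon chr1:58888450-58888511 (62 nt) was seen in every library, at 2.62, 1.54 and 3.18% of the reads leaving its upstream donor in S34F and 1.96, 1.65 and 2.81% in WT.

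Among the tested Casp8 junctions an acceptor inside a coding exon, at 58885804, was present in some libraries and without a read in others. It lies 87 nt downstream of the annotated acceptor 58885717, a multiple of 3, and has a C at -3 like the annotated one.

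Casp8 annotated acceptor at 58885717: ttgtgcttcactctcctcccCAGagc

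Casp8 acceptor at 58885804: ccctaaaatcaatctgtgacCAGgtc

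It had 40 reads in S34F replicate 3, 44 in WT replicate 1 and 75 in WT replicate 2, which is 4.84% (exact binomial 95% interval 3.48 to 6.53), 5.88% (4.31 to 7.82) and 5.14% (4.07 to 6.41) of the reads leaving the donor 58884156. It had 0 reads of 864 and 785 in S34F replicates 1 and 2 and 0 of 1720 in WT replicate 3, counts that allow shares of up to 0.347, 0.382 and 0.174%. These intervals and limits cover counting error only. The split ran within both genotypes, and no difference between them was called (edgeR adjusted p = 0.913).

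A pair of listed Casp8 junctions starts outside the gene. The larger joins a donor at 58709533, which is 142685 bases upstream of Casp8 between Gm10068 and Als2cr12, to the acceptor of the last exon at 58903466, a distance of 193932 nt that spans Cflar. It had 55, 47 and 70 reads in S34F and 78, 144 and 77 in WT, or 5.04, 5.10 and 7.01% of the reads at that acceptor against 6.92, 7.79 and 2.87%. The other, from 58710668, had 0, 5 and 1 reads against 8, 4 and 30. WT replicate 3 was the lowest of the 6 libraries for the larger one, as a share, and the highest for the other (edgeR adjusted p of the larger = 0.995). The mm9 sequence at chr1:58710066-58712687, just downstream of the larger one's donor, repeats chr1:58902130-58904347. That stretch of Casp8 is the later part of the last intron, without its annotated donor at 58901689, and the last exon up to the gene end. The copy and this stretch share 876 exact words of 20 nt, and 99 of the first 100 bases of the last exon are identical. The other distant donor, 58710668, lies inside the copy. The copy of the acceptor lies at 58711789 and is also preceded by AG, which would make an intron of 2255 nt from 58709533. Reads on the last exon of Casp8 can therefore match either place, and the Casp8 count is uncertain to that extent. Which of them these reads came from was not tested.

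Cflar (chr1:58768352-58815728, plus strand), the caspase-8 regulator next to Casp8, had 122, 130 and 123 CPM in S34F and 124, 125 and 120 CPM in WT. It was the most even of the 9 genes, with means of 125 ± 4.61 and 123 ± 2.85 CPM. The log2 fold change was 0.02 with a standard error of 0.08 and a 95% interval of -0.17 to 0.22, the narrowest of the 9, which spans 0.89 to 1.16 times the WT level (edgeR adjusted p = 0.930). Its cassette exon chr1:58785900-58786005 (106 nt, coding) was included at 85.8, 89.9 and 87.2% in S34F and 85.7, 83.0 and 86.6% in WT (edgeR adjusted p = 0.748). The coding exon chr1:58789097-58789170 (74 nt) was included at 87.7, 97.2 and 96.0% in S34F and 96.6, 97.8 and 87.8% in WT. S34F replicate 1 and WT replicate 3 were low by a like amount, so a single library of each genotype set the spread (edgeR adjusted p = 0.963). The skipping junction of this exon is unannotated and had 39 and 64 reads in those libraries and 8 to 11 in the other 4. The acceptor at 58792502, which both forms share, is among the 3 member acceptors with an A at -3.

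Cflar acceptor at 58792502: gaccttctgttttatatttgAAGctc

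Ripk1 (chr13:34094232-34127039, plus strand), the kinase that steers between survival and death, had 96.8, 111 and 98.1 CPM in S34F and 92.0, 99.8 and 81.3 CPM in WT. S34F was higher within each pair of libraries of the same number, by 0.07, 0.15 and 0.27 on the log2 scale, but WT replicate 2 was above S34F replicates 1 and 3. Its log2 fold change was 0.16 with a standard error of 0.11 (95% interval -0.09 to 0.42; edgeR adjusted p = 0.632).

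The only other member event under an unadjusted p of 0.05 was in Ripk1, the use of the annotated donor 34105256 at the acceptor 34106995. An unannotated exon of 112 nt (chr13:34106417-34106528) also joins to this acceptor; its acceptor and donor both lie within the longer last exon of the retained-intron transcript Ripk1-003. The exon is printed because its downstream junction is the main competitor of that donor; it holds no stop in the frame of Ripk1-001, its length is not a multiple of 3, and its acceptor has a T at -3.

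Ripk1 112-nt exon: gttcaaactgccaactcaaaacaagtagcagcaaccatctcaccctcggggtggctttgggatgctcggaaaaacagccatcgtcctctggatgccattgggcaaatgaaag

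Ripk1 112-nt exon acceptor: ctctccatcctgtcttctctTAGgtt

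Ripk1 annotated acceptor at 34106995: cattggcccctcttcttttcCAGata

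Reads from the exon to 34106995 numbered 25, 18 and 26 in S34F and 37, 47 and 64 in WT. Their share of that acceptor's reads was 5.15, 4.24 and 5.57% in S34F and 8.71, 6.90 and 9.12% in WT. All S34F libraries were below all WT libraries, with means of 4.99 ± 0.682 and 8.24 ± 1.18%. For this junction the edgeR p was 0.0580 and the edgeR adjusted p 0.784. The annotated donor took 94.2, 94.4 and 93.8% in S34F and 90.4, 91.5 and 88.3% in WT. Its log2 odds differed by 0.81 with a standard error of 0.33 (95% interval 0.03 to 1.59). The edgeR p was 0.0433, the edgeR adjusted p 0.766 and the DESeq2 adjusted p 0.402. Reads into the exon were fewer than reads out of it, 6, 13 and 12 in S34F and 10, 5 and 8 in WT, and did not follow the same order. With both sides averaged the inclusion was 3.28, 3.72 and 4.16% against 5.77, 4.01 and 5.49%, which overlapped (edgeR adjusted p = 0.635). In the authors' deposited table the junction out of the exon had a log2 fold change of -0.73 and a p of 0.0295.

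**Figure D3:**
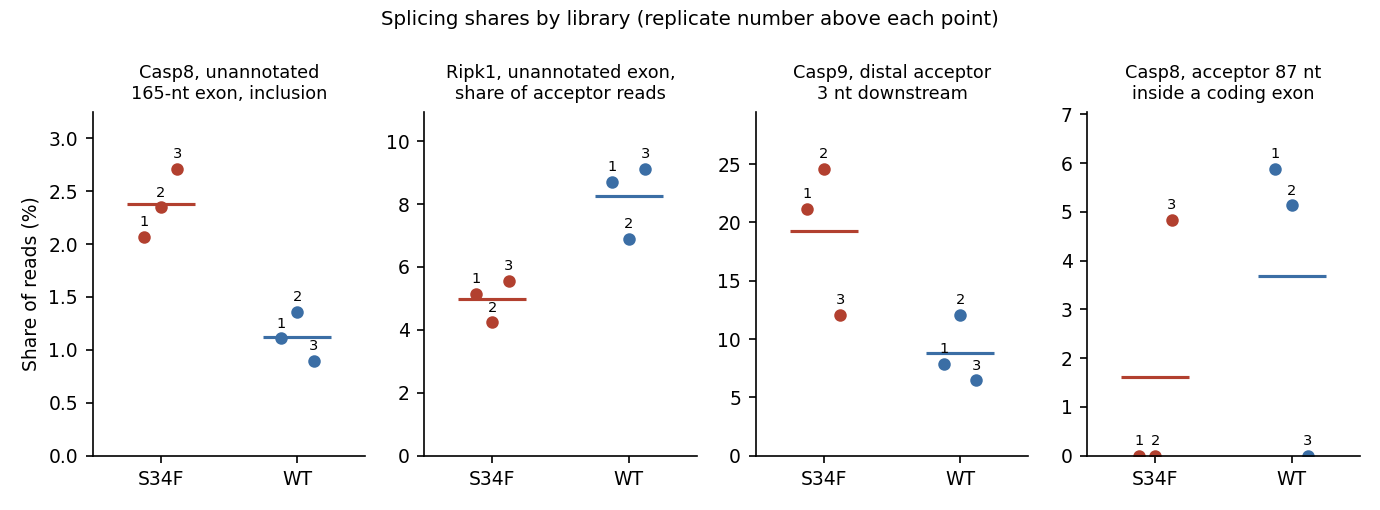
Share of reads, in percent of the site's or exon's reads, for 4 events by library; points are libraries with the replicate number above them, bars are means, red is U2AF1(S34F) and blue is U2AF1(WT), and each axis starts at 0. The genotypes do not overlap for the Casp8 165-nt exon (2.07 to 2.71% against 0.897 to 1.36%) and the Ripk1 exon (4.24 to 5.57% against 6.90 to 9.12%), touch at 12.1% for Casp9, and overlap for the Casp8 acceptor at 58885804, which has 0 reads in 3 libraries.

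Across the 9 genes 30 of 40 donor choices passed the filter, edgeR called 0 and DESeq2 0, 1 had an unadjusted p under 0.05 and 3 did not overlap, counting the mirrored forms of a choice separately. Over all genes edgeR called 0.00997%, DESeq2 called 0.774%, 6.42% had an unadjusted p under 0.05 and 14.8% did not overlap. For acceptor choices 36 of 42 were tested, with 0 calls by edgeR or DESeq2, 0 unadjusted p-values under 0.05 and 4 without overlap. Over all genes edgeR called 0%, DESeq2 called 1.24%, 7.51% had an unadjusted p under 0.05 and 17% did not overlap. The shares among the members were thus at or below those of all genes, apart from the cassette exons, where 1 of 8 is too few to compare.

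At the start of a coding exon of Ripk1 an acceptor 4 nt downstream of the annotated one, at 34105123, again separated libraries and not genotypes. It had 33 reads in S34F replicate 1 (9.17%, exact binomial 95% interval 6.39 to 12.6) and 29 in WT replicate 3 (4.44%, 2.99 to 6.32). WT replicates 1 and 2 had 4 and 2 reads and S34F replicates 2 and 3 had 0 of 355 and 333, which allows up to 0.845 and 0.901%. A shift of 4 nt changes the reading frame, and in that frame the exon has a stop at its codon 6. The sites overlap, so the sequences are the same bases moved along.

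Ripk1 annotated acceptor at 34105119: atagacttaatgtgttattcCAGata

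Ripk1 acceptor at 34105123: acttaatgtgttattccagaTAGatg

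The first-exon donor of Ripk1-002, at 34094822, had 8, 11 and 14 reads in S34F and 0, 0 and 21 in WT, or 2.79, 3.02 and 3.76% against 0, 0 and 4.02% (edgeR adjusted p = 0.886). Skipping of the 77-nt coding exon chr13:34113250-34113326 was steady, at 4.46 to 5.04% of the reads leaving its upstream donor in S34F and 3.54 to 5.52% in WT.

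Casp9 (chr4:141349527-141371891, plus strand), the initiator caspase that the apoptosome activates, had 21.2, 25.9 and 21.8 CPM in S34F and 22.2, 20.2 and 19.3 CPM in WT. S34F replicate 2 stood above the rest and the other 5 libraries lay within 19.3 to 22.2 CPM. edgeR put the log2 fold change at 0.16 with a standard error of 0.13 (95% interval -0.14 to 0.46; edgeR adjusted p = 0.676). All 9 Casp9 junctions are annotated. Its only splice choice in the table is between tandem acceptors 3 nt apart in the coding sequence, 141352350 and 141352353, each with CAG at its end; they differ by a single codon and are shown because they are the closest competing sites among the 9 genes.

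Casp9 acceptor at 141352350: tgtctggttttctatccaaaCAGcag

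Casp9 acceptor at 141352353: ctggttttctatccaaacagCAGgca

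The downstream site had 7, 14 and 4 reads in S34F and 3, 7 and 8 in WT, against 26, 43 and 29 and 35, 51 and 116 at the upstream site. Its share was 21.2, 24.6 and 12.1% in S34F and 7.89, 12.1 and 6.45% in WT. The means were 19.3 ± 6.44 and 8.81 ± 2.92%, and S34F replicate 3 was barely above WT replicate 2. The edgeR p was 0.0795 (adjusted 0.696) and DESeq2 gave an adjusted p of 0.485. With 3 to 14 reads per library at the downstream site, a difference of this size was not resolved at this depth.

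Mcl1 (chr3:95462643-95467099, plus strand), the short-lived survival protein, had 17343, 10549 and 13362 counts in S34F and 19221, 19794 and 23056 in WT. These came to 332, 228 and 265 CPM against 348, 279 and 245 CPM. Replicate 1 was the highest of each genotype and the ranges overlapped almost wholly. The means were 275 ± 52.9 and 291 ± 52.6 CPM, with a log2 fold change of -0.08 and a standard error of 0.18 (95% interval -0.49 to 0.33; edgeR adjusted p = 0.879).

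The long, protective form of MCL1 contains the middle coding exon, and a short form that promotes death skips it. The table holds the junctions on both sides of that exon, 95463410 to 95463684 and 95463931 to 95464630, and lists none that joins 95463410 to 95464630, so no share of the short form was computed; the smallest total of any listed junction over the 6 libraries was 12 reads. The upstream junction had 738, 521 and 730 reads in S34F and 982, 953 and 990 in WT, and the downstream one 797, 622 and 673 against 1088, 1115 and 1707. For each 100 reads of the downstream junction there were 92.6, 83.8 and 108 of the upstream one in S34F and 90.3, 85.5 and 58.0 in WT. WT replicate 3 was far below the other 5 libraries, and the genotypes overlapped (exact permutation p = 0.3, two-sided). The remaining Mcl1 entry, 95462913 to 95462915 with 20 to 110 reads, spans a gap of 1 base at which the annotation splits the first coding exon, and it carries no GT-AG.

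Mcl1 upstream acceptor at 95463684: aggtttcttgcttttcttctCAGgca

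Mcl1 downstream acceptor at 95464630: tgcttttcttttttgttttcTAGgat

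The pair is shown because the exon between them defines the MCL1 forms; the sites differ at -3, C at the exon itself and T at the following one.

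Bcl2 (chr1:108434755-108610851, minus strand), the founding survival gene, had 257, 173 and 252 CPM in S34F and 224, 223 and 233 CPM in WT. S34F replicate 2 was low, the other S34F libraries were above all of WT, and the means were equal at 227 ± 47.4 and 227 ± 5.67 CPM. The log2 fold change was 0.01 with a standard error of 0.16 (95% interval -0.36 to 0.37; edgeR adjusted p = 0.994). Its coding junction had 273, 171 and 300 reads in S34F and 305, 421 and 634 in WT. An unannotated acceptor inside the intron had 6, 0 and 2 against 0, 0 and 10 reads, too few to test.

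Bcl2l1 (chr2:152593052-152657464, minus strand), which encodes BCL-XL, had 14.0, 14.9 and 14.4 CPM in S34F and 15.1, 7.97 and 11.3 CPM in WT. The S34F libraries were close together and WT replicates 2 and 3 were below them, while WT replicate 1 was the highest of all. The log2 fold change of 0.33 was the largest of the 9, with a standard error of 0.23 and a 95% interval of -0.19 to 0.86, or 0.877 to 1.81 times the WT level (edgeR adjusted p = 0.630). Within pairs of the same number the log2 difference was -0.11, 0.91 and 0.35. The long form BCL-XL and the death-promoting short form BCL-XS differ in a donor inside the coding exon. The only coding junction listed, 152608018 to 152655163, is that of the long form, with 54, 62 and 57 reads in S34F and 43, 62 and 175 in WT; no junction with another coding donor is listed, so no share of the short form was computed.

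The choices seen in Bcl2l1 were in the noncoding 5′ part. From the donor 152656122, transcripts continued at 152655838 or 18 nt upstream of it at 152655856, an acceptor with an A at -3.

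Bcl2l1 acceptor at 152655838: tgaagctctctctctctcttCAGaac

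Bcl2l1 acceptor at 152655856: catattaaatttttctcctgAAGctc

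The share of 152655856 was 16.7, 28.1 and 17.9% in S34F and 18.3, 2.22 and 0% in WT. WT replicate 1 was level with S34F, and WT replicates 2 and 3 were below it with 1 and 0 reads, the latter of 20, which allows up to 15.0%. The means were 20.9 ± 6.30 and 6.85 ± 10% (edgeR adjusted p = 0.748). From the other first exon, whose donor is at 152657339, the share of the same acceptor was 7.41, 28.0 and 6.52% in S34F and 25.7, 0 and 10.5% in WT (edgeR adjusted p = 0.989), so the order did not recur. That first exon supplied 41.7, 61.0 and 48.3% of the reads at 152655838 in S34F and 34.7, 36.2 and 71.8% in WT (edgeR adjusted p = 0.990).

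Bcl2l11 (chr2:127951774-127988283, plus strand), the BH3-only gene that encodes BIM, had 36.1, 26.3 and 34.2 CPM in S34F and 30.4, 22.8 and 26.0 CPM in WT. It was higher in S34F in each pair of libraries of the same number, by 0.25, 0.20 and 0.40 on the log2 scale, but S34F replicate 2 was below WT replicate 1. The means were 32.2 ± 5.21 and 26.4 ± 3.80 CPM, with a log2 fold change of 0.29 and a standard error of 0.16 (95% interval -0.09 to 0.67, or 0.938 to 1.59 times the WT level). The edgeR adjusted p was 0.592, the lowest of the 9 genes.

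BIM is made as an extra long, a long and a short form, annotated at 196, 140 and 110 codons, of which the short is the most potent killer. The extra long form keeps a 168-nt stretch of coding sequence that the long form splices out, and the short form skips from the same donor to 127972821. The junction 127954492 to 127954661 had 26, 20 and 39 reads in S34F and 24, 21 and 73 in WT. The long form shares it with the transcripts Bcl2l11-003 and Bcl2l11-004, so its reads are not those of the long form alone. Those transcripts continue from 127954750 to 127955373, a junction with 4, 14 and 13 reads in S34F and 12, 10 and 5 in WT. The short-form junction had 3, 0 and 9 reads against 8, 0 and 13. The junction from 127954750 to 127972821, which the extra long and long forms share, had 67, 29 and 54 against 43, 62 and 61 reads. So the shared junction outnumbered the short-form junction in all 6 libraries, and replicate 2 of both genotypes had no short-form read. Of the reads leaving 127954492 the short form took 10.3, 0 and 18.8% in S34F and 25, 0 and 15.1% in WT. The 0 of 20 and 0 of 21 reads in replicate 2 allow shares of up to 15.0 and 14.3%, so the short form is not shown to be missing there. The means were 9.70 ± 9.39 and 13.4 ± 12.6% (edgeR adjusted p = 0.975).

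Bcl2l11 long-form acceptor at 127954661: tgggtatttctcttttgacaCAGaca

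Bcl2l11 short-form acceptor at 127972821: tggtttctttgcctcccgagCAGctt

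These competing acceptors are printed because they set the short form against the long form and the transcripts that share its junction. Both have a C at -3. The first-exon donor at 127951988 took 46.8, 45.9 and 44.1% of its acceptor's reads in S34F and 29.6, 57.4 and 57.5% in WT (edgeR adjusted p = 0.989). The donor at 127954139 had reads only in replicate 1 of each genotype, 7 and 8, and 0 in the other 4 libraries; these 2 libraries are the male ones.

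The base at -3 was tabulated over all 61 acceptors of the 9 genes. It was C at 44 (72.1%), T at 13 (21.3%), A at 3 (4.92%) and G at 1, where the 130535 acceptors of the whole table had C at 62.6%, T at 30.6%, A at 6.37% and G at 0.403%. The G is that of the Mcl1 entry 95462913 to 95462915, which spans a gap of 1 base and carries no GT-AG. Over all genes the median log2 odds change of an acceptor's share in S34F was 0.27 for A, 0.10 for C and -0.28 for T. There, 1595 of 2555 choices with A, 9889 of 17789 with C and 3400 of 9133 with T had a higher share in S34F. Of the tested acceptor choices of the members, the 4 with A all had a higher share in S34F (median 0.76), 11 with C had a higher and 16 a lower share (median -0.18), and 1 with T had a higher and 4 a lower share. The 4 choices with A lie in 3 genes, Casp8, Cflar and Bcl2l1, and the Bcl2l1 ones use the same acceptor from different donors. The Cflar choice is the skipping of a coding exon, and the form that includes the exon reaches the same acceptor. Its log2 odds change was 0.18 with a standard error of 0.91. None of the 4 passed the test, and forms that compete for a donor mirror each other.

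The other genes of these pathways were taken from 10 lists with 79 genes, of which 69 were tested. edgeR and DESeq2 called 0 of the 69. At an unadjusted edgeR p under 0.05 there were 5 higher and 4 lower, 13 did not overlap between the genotypes, 35 had a log2 fold change above 0 and 34 below, and the median was 0.00. Among the 13905 genes tested 611 were higher and 654 lower at that p, together 9.1%, 15.6% did not overlap, and 6831 had a log2 fold change above 0 and 7074 below. The lowest adjusted p in the lists was 0.538. Of the list genes named below, Map3k7, Bcl2l2, Bcl2a1b, Bcl2a1d and Rock1 overlapped between the genotypes and the others did not.

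Among 11 death receptor, ligand and adaptor genes, 7 were above 0 and 4 below. Tnfrsf10b, which encodes a TRAIL receptor, was at 3.66 ± 0.569 CPM in S34F and 1.94 ± 0.741 in WT (log2 fold change 0.92, edgeR adjusted p = 0.538). Of 12 genes of necroptosis and RIPK1 control 4 were above 0 and 8 below, with a median of -0.13. Mlkl, the executioner of necroptosis, was at 52.9 ± 2.46 against 66.3 ± 7.73 CPM (-0.33, edgeR adjusted p = 0.538). Map3k7, which encodes the kinase TAK1, was at 114 ± 11.6 against 93.4 ± 9.03 CPM (0.29, edgeR adjusted p = 0.548).

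On the mitochondrial side the 3 pore-forming effectors were all above 0, with a median of 0.16. Bax, the effector that the survival proteins above hold back, was at 46.7, 44.9 and 43.8 CPM in S34F and 33.7, 35.7 and 36.8 in WT, without overlap (0.35, edgeR adjusted p = 0.538). Of 7 other BH3-only genes 4 were above 0; Bbc3, which encodes PUMA and is a known p53 target, was at 11, 7.87 and 11.1 against 6.56, 4.36 and 6.76 CPM, without overlap (0.76, edgeR adjusted p = 0.538). Aifm1, a mitochondrial protein gene, was at 60.9 ± 3.05 against 42.0 ± 12.0 CPM (0.54, edgeR adjusted p = 0.538). Of the 3 other survival genes tested, Bcl2l2 was at 18.5 ± 1.71 against 17.8 ± 1.65 CPM (0.05, edgeR adjusted p = 0.898). Bcl2a1b was at 0.229 ± 0.0511 against 0.406 ± 0.145 CPM (-0.84, edgeR adjusted p = 0.569). Bcl2a1d was at 0.264 ± 0.0703 against 0.475 ± 0.176 CPM (-0.86, edgeR adjusted p = 0.569). Bcl2a1b and Bcl2a1d were very low and are near-identical copies, so their counts are uncertain. The median of the 3, -0.84, is that of Bcl2a1b. Of the genes named from the lists, Bcl2a1d, Rock1 and Usp9x had an unadjusted edgeR p of 0.05 or more and stand for lists with none below it. Bcl2l2 and Bcl2a1b, also at 0.05 or more, are given beside Bcl2a1d as the other tested genes of its list.

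Of the 7 other caspases 3 were above 0 and 4 below. Casp6, an executioner caspase, was at 9.43 ± 1.08 against 14.3 ± 3.21 CPM (-0.60, edgeR adjusted p = 0.538), and Casp12 at 11.8 ± 1.33 against 15.9 ± 2.55 CPM (-0.44, edgeR adjusted p = 0.545). Of 9 inhibitor of apoptosis genes, 4 were above 0 and 5 below. Naip5, a sensor of bacterial flagellin that belongs to this family by its domains and has close copies, was at 13.7 ± 7.29 against 27.3 ± 4.55 CPM (-0.99, edgeR adjusted p = 0.548). Of 7 caspase targets 3 were above 0, and Rock1, a kinase that caspase-3 cleaves, was at 186 ± 17.5 against 154 ± 19.1 CPM (0.27, edgeR adjusted p = 0.563). Of 4 genes of MCL1 turnover 3 were above 0, and Usp9x, the deubiquitinase that stabilises MCL1, was at 491 ± 17.2 against 433 ± 20.8 CPM without overlap (0.18, edgeR adjusted p = 0.569).

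**Figure D4:**
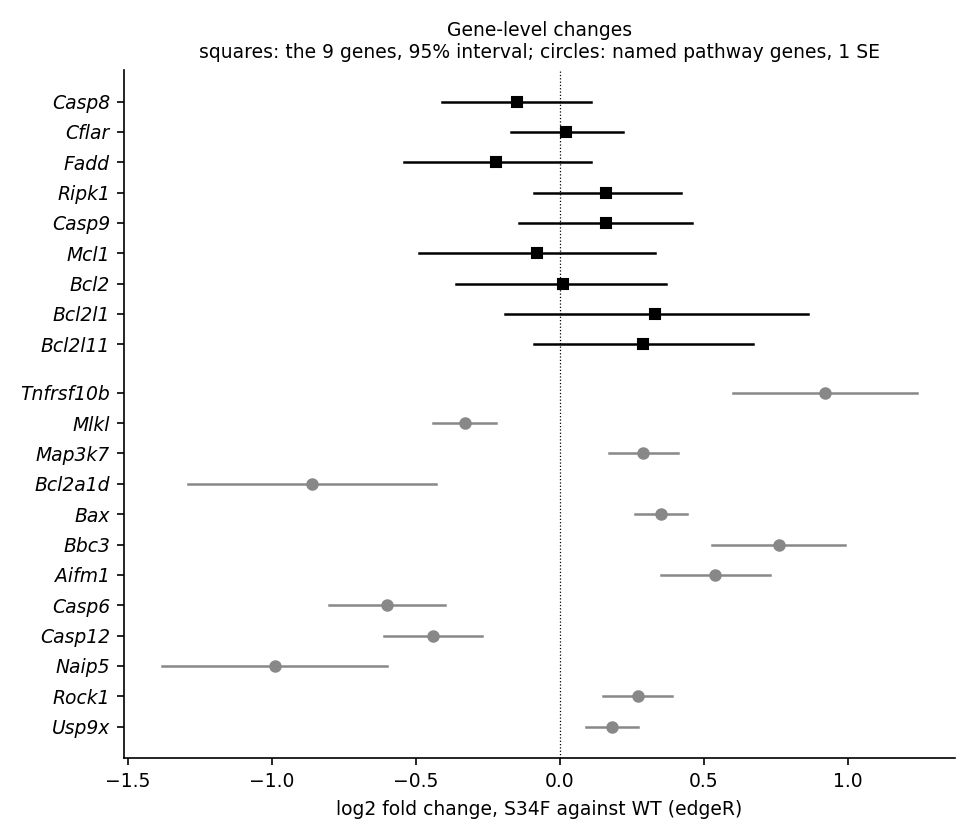
Log2 fold change of S34F against WT from edgeR. Squares are the 9 genes with 95% intervals. Circles are the genes named from the pathway lists, without Bcl2l2 and Bcl2a1b, with 1 standard error on each side. The interval of each of the 9 genes includes 0, and the named list genes range from -0.99 for Naip5 to 0.92 for Tnfrsf10b.

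The genes whose levels followed Casp8 most closely over the 6 libraries were Sap18 (Pearson r = 0.993 on log2 CPM), Arl2bp (0.992) and 2610528E23Rik (0.991). A total of 348 genes had an r over 0.9 with Casp8. With 6 libraries that share depth and genotype differences, this is a description of a common pattern, low in WT replicate 1 and high in WT replicates 2 and 3.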

How the data were processed

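RNA of sorted progenitors was depleted of ribosomal RNA and sequenced as stranded paired reads of 100 bp, per the labels. The authors deposited raw counts per gene and per splice junction for each library, and beside them a ratio of the group levels (fold change) and its log2, p-values, FPKM per gene and, per the file headers, a DEXSeq mean count (a coverage signal) and dispersion and test statistic (a score), of which the last kinds were not used. Per the submitters' processing notes, the tools included TopHat2 2.0.8, Bowtie2 2.1.0, Cufflinks 2.1.1, HTSeq 0.5.4p1 and DESeq2 1.6.1; the build is mm9. For counting, the use of strand is not given in the sources used here. Among deposited genes the smallest total was 54 counts. Of the gene identifiers, 99.77% were in the GENCODE M1 annotation, and junction positions refer to exon bases that border the intron (after a shift of 1 base inward, 99.985% of GT-AG introns showed these bases).

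Gene counts were fitted with edgeR 4.0.16 (R 4.3.3; TMM, default filter, quasi-likelihood test, genotype only). Acceptor choices at a shared donor, donor choices at a shared acceptor, and cassette exons of 10 to 1000 nt were fitted as 2 counts per library with library terms and tested for the interaction of form and genotype. Events had at least 20 reads per library, with a minor form of 1% (2% for cassette exons). DESeq2 1.42.0 and, for splicing, limma 3.58.1 with 0.5 added per count were alternatives. P-values were adjusted over each whole table; 0.05 was the threshold and tests were two-sided. Simulated counts at these depths gave recovery of 8% of genes changed 1.5-fold and 60% of those changed 2-fold (13905 genes). Of events changed 2-fold in odds, 10% of acceptor (29709 tested), 6% of donor (30084) and 20% of cassette choices (7260) were recovered. The events were simulated at a single fixed dispersion that was not estimated from these data, so recovery of noisier events was not measured. Whether marrow donors were shared between pools is not stated, so p-values measure the spread between these pools.

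The 9 genes and the pathway lists were chosen with earlier results of these data known. All 9 genes are named; from each list every gene with an unadjusted edgeR p under 0.05 is named, or else the gene of lowest p; of the splicing events, those under 0.05 and, for Casp8, Mcl1, Bcl2l1 and Bcl2l11, the main alternative junction. Other events are described to account for the members and were chosen after their values were seen. Bcl2l2 and Bcl2a1b are given in addition to the genes that the list rule names.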

Additional observations from a re-analysis of the deposited data

How the results depend on the processing

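The count of the 9 genes called was 0 in every alternative, and so was the count of their acceptor, donor and cassette choices called. Over all genes the count of genes called, 0 with edgeR, was 96 with DESeq2, 5 with the replicate block, 599 without both libraries of replicate 1 and 0 to 1172 when single libraries were left out, the highest without WT replicate 1. Acceptor choices called over all genes rose from 0 to 368 with DESeq2 and 45 with limma; donor choices were 3, 233 with DESeq2, 56 with limma, 0 with the replicate block and 0 to 5 without single libraries; cassette exons were 2, 99 with DESeq2, 0 with limma, 0 with the replicate block and 0 to 1 without single libraries. Same-numbered libraries correlated at 0.25, 0.32 and 0.04 in their deviations from the group means, and S34F replicate 3 correlated better with WT replicate 1 (0.12), so the numbers were not taken to pair the libraries; the block changed no call among the 9 genes.

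Signs turned only for changes near 0. The log2 fold change of Cflar was -0.01 without S34F replicate 2. That of Mcl1 was 0.04 without S34F replicate 2 and 0.07 without WT replicate 1. That of Bcl2 was -0.02 with the block, -0.09, -0.08, -0.00 and -0.01 without S34F replicate 1, S34F replicate 3, WT replicate 1 and WT replicate 2, and -0.10 without both libraries of replicate 1. Without single libraries Bcl2 ranged from -0.09 to 0.17. The log2 odds change of the Casp8 first-exon donor 58859537 ranged from -0.20 to 0.10, the latter without WT replicate 3, that of the Bcl2l11 donor 127951988 from -0.69 to 0.15, with 0.11 and 0.15 without WT replicates 2 and 3, and that of the Bcl2l1 donor 152657339 from -0.24 to 0.88, with -0.13, -0.24 and -0.19 without S34F replicate 2, WT replicate 1 and WT replicate 2. The Casp8 exon's change ranged from 0.94 to 1.28 (lowest adjusted p 0.134), that of the Ripk1 donor from 0.67 to 0.93 (0.402), and that of Bcl2l1 from 0.13 to 0.61 (0.0902). Without single libraries the log2 fold change ranged from -0.25 (WT replicate 1) to -0.08 (WT replicate 3) for Casp8, -0.32 (S34F replicate 2) to -0.12 (S34F replicate 1) for Fadd, 0.09 (WT replicate 3) to 0.23 (WT replicate 2) for Ripk1, 0.06 (S34F replicate 2) to 0.22 (WT replicate 1) for Casp9, 0.13 (WT replicate 2) to 0.58 (WT replicate 1) for Bcl2l1 and 0.19 (WT replicate 2) to 0.41 (S34F replicate 2) for Bcl2l11, with no call. Among the listed genes, Aifm1 passed the edgeR threshold without WT replicate 1 (0.79, adjusted p = 0.012) and without both libraries of replicate 1 (0.76, 0.0311), and Casp6 without WT replicate 1 (-0.78, 0.024). The cause was not tested.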
